A study of Mus musculus with 3 samples.

Results

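The 9 genes described here are the Janus kinase genes Jak1, Jak2, Jak3 and Tyk2 and the STAT transcription factor genes Stat2, Stat3, Stat5a, Stat5b and Stat6. They were taken by gene symbol from the 35764 symbols of the expression table, and every one of the 9 symbols was present. The samples are 3 polyadenylated RNA libraries of KPC78 cells, a mouse line of pancreatic ductal adenocarcinoma with the genotype label WT, and they form 1 group with no treated arm. The labels give no alleles for KPC78. The stated purpose of the sequencing was to see which integrin subunits the line expresses, so the JAK and STAT genes are read from data collected for another question. Levels are in TPM, a share of transcripts corrected for transcript length, so that genes can be compared inside a library. Values after ± are SDs over the 3 libraries (n = 3), and a gene is called detected when it reached 1 TPM in each of them. The design text calls the libraries biological replicates without saying whether they came from separate cultures, so the p-values measure the spread between these samples, which may be technical. They do not cover an error in the level of a gene that repeats in every library, for instance from sequence shared with another gene.

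Janus kinases are tyrosine kinases bound to the inner part of cytokine receptors that have no kinase of their own. When a cytokine brings receptor chains together, the bound kinases phosphorylate the chains and then the STAT proteins that dock there, and the STATs pair up, enter the nucleus and bind DNA. Different receptors use different sets of kinases and STATs, and STAT3 downstream of IL-6 family cytokines is well known in pancreatic cancer. RNA levels measure neither phosphorylation nor activity.

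Marker genes were checked against the label. Of 10 epithelial and pancreatic ductal markers 8 were detected, without Krt7 and Epcam, and the keratin Krt18 stood at 1472 ± 31 TPM. Of 14 leukocyte markers 1 was detected, Cd68, and the 14 genes summed to between 1.85 and 3.55 TPM per library. Of 10 fibroblast markers 3 were detected (sum 77.3 to 84.4 TPM), of 8 acinar markers 1, and of 8 endothelial markers 0. The libraries are bulk RNA, so a low level in every cell and a higher level in a few cells cannot be told apart.

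All 9 genes were detected, where 32.6% of all symbols and 55.4% of protein-coding symbols were. They fell into 3 steps of abundance. Jak1, Stat6 and Stat3 stood between 42.2 and 55.8 TPM in the single libraries. Jak2, Stat5a, Jak3, Stat5b and Tyk2 stood between 12.5 and 19.5 TPM, and Stat2 stood alone near 6 TPM. No library value of one step overlapped with the next. The 4 JAK genes summed to 102 ± 8.07 TPM and the 5 STAT genes to 131 ± 3.88 TPM.

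**Figure D1:**
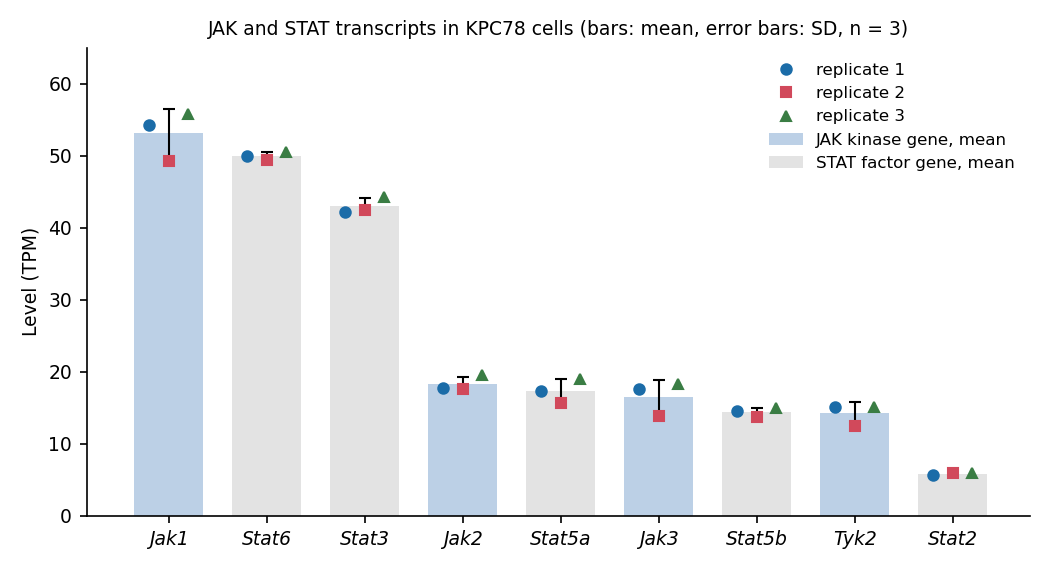
Level in TPM of each JAK (blue bars) and STAT (grey bars) gene, with bars for the mean, error bars for the SD of 3 libraries and a symbol for each replicate. Jak1, Stat6 and Stat3 lie above 42 TPM, 5 genes lie between 12.5 and 19.5 TPM, and Stat2 is the lowest.

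Jak1 was the most abundant kinase of the family. It is the partner kinase of the gp130, interferon and common gamma chain receptors. Its levels were 54.3, 49.2 and 55.8 TPM in replicates 1, 2 and 3, with a mean of 53.1 ± 3.44 TPM, above 75.1% of the detected genes. Jak1 supplied 52.0% ± 0.77 of the summed TPM of the 4 kinases. It exceeded Jak2 by 2.91 ± 0.14-fold in TPM (log2 ratio of Jak2 to Jak1 -1.49 with SE 0.052, from log2(TPM + 1) values; adjusted p = 4.37e-07, limma). Against Jak3 it was 3.24 ± 0.28-fold higher and against Tyk2 3.74 ± 0.18-fold higher (adjusted p = 5.62e-07 and 1.65e-07, limma).

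Jak2, Jak3 and Tyk2 lay close to each other. Jak2 serves the growth hormone, erythropoietin and prolactin receptors and the interferon gamma receptor, and stood at 17.7, 17.5 and 19.5 TPM. Jak3, which pairs with the common gamma chain and is known mainly from lymphocytes, stood at 17.6, 13.9 and 18.2 TPM. Tyk2, a kinase of the type I interferon and IL-12 family receptors, stood at 15.1, 12.5 and 15.1 TPM. The ranges of Jak3 and Tyk2 overlapped, with replicate 2 the lowest library for both, while Jak2 and Tyk2 did not overlap.

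Jak2 was 1.29 ± 0.12-fold above Tyk2 (adjusted p = 0.00082, limma). Jak2 and Jak3 did not pass the test, with a log2 ratio of Jak3 to Jak2 of -0.14 and a 95% interval from -0.31 to 0.029 (adjusted p = 0.10, limma). Jak3 was above Tyk2 in 3 of 3 libraries, by 1.16 ± 0.048-fold, yet this pair did not pass when all genes were referred to Jak3 (adjusted p = 0.14, limma). It passed when they were referred to Tyk2 (adjusted p = 0.031, limma) and without replicate 2 (adjusted p = 0.012, limma), and over all alternatives its adjusted p ran from 0.0025 to 0.33.

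Leukocyte markers are given beside Jak3 because that kinase is known mainly from lymphocytes. The 1 detected marker of the 14, the macrophage gene Cd68, stood at 2.51, 1.54 and 3.24 TPM. Ptprc, the pan-leukocyte surface phosphatase CD45, stood at 0.068, 0.058 and 0.033 TPM. The T-cell genes Cd3e and Cd3g and the B-cell gene Cd79a had means of 0.0046, 0.016 and 0.036 TPM, and Ncr1 and Adgre1 had no TPM above 0. Among receptor chains of leukocytes that work with Jak3, Il2rb and Il7r had means of 0.013 and 0.0073 TPM. The common gamma chain itself, Il2rg, was detected, with 9.05, 6.76 and 8.34 TPM. In the GENCODE M21 annotation of GRCm38, Jak3 spans chr8:71676296-71690575 on the plus strand and overlaps Insl3, a hormone gene on the same strand. Of the 31-base stretches of the longest Jak3 coding transcript, 9.38% also occur in Insl3, which stood at 6.83, 3.96 and 5.24 TPM. Reads from those stretches cannot be assigned to 1 gene by their sequence alone.

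Stat6, the factor of IL-4 and IL-13 signalling, was the most abundant of the 5 STAT genes. It stood at 50.02, 49.5 and 50.6 TPM and made up 38.3% ± 0.71 of their sum. Its coefficient of variation over the libraries was 1.12%, the smallest of the 9 genes, where the median of 8502 genes of at least 10 TPM was 5.29%. Stat6 and Jak1 overlapped and did not pass the test (log2 ratio of Stat6 to Jak1 -0.08, 95% interval -0.22 to 0.050, adjusted p = 0.18, limma). The next gene was Stat3, the factor of IL-6 family cytokines, at 42.2, 42.5 and 44.3 TPM. Every Stat3 value was below every Stat6 value, and Stat6 was 1.16 ± 0.021-fold higher (adjusted p = 0.0048, limma). Together Stat6 and Stat3 held most of the STAT sum, with 32.9% ± 0.41 from Stat3.

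Stat5a and Stat5b, the paired factors of growth hormone, prolactin and IL-2 family signalling, lay lower. Stat5a stood at 17.3, 15.6 and 19.0 TPM and Stat5b at 14.5, 13.7 and 14.9 TPM. The ranges did not overlap, and Stat5a was 1.20 ± 0.065-fold above Stat5b. Their log2 ratio, Stat5b to Stat5a, was -0.25 (adjusted p = 0.027, limma). Without replicate 1 it was -0.25 as well but did not pass (adjusted p = 0.11, limma), and over all alternatives the adjusted p ran from 0.00018 to 0.11. Stat3 exceeded Stat5a 2.50 ± 0.20-fold and Stat5b 2.99 ± 0.10-fold (adjusted p = 3.26e-06 and 5.97e-07, limma).

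The split between Stat5a and Stat5b rests on stretches of sequence in which these similar genes differ. Their coding sequences share 90.7% of 2343 aligned bases. Of the 31-base stretches of the longest Stat5a and Stat5b transcripts, 22.8% and 16.3% also occur in another gene, almost all of them in the other STAT5 gene. Within the coding sequences alone, 35.6% of the 31-base stretches of Stat5a and 35.9% of those of Stat5b occur in the other gene. Both stretches of 60 coding bases that follow are from GENCODE M21 (GRCm38) transcripts, in coding orientation. They hold the most and the fewest differences among ungapped stretches of this length in the coding alignment. Transcript parts outside the coding sequence were not aligned. In coding bases 85 to 144, counted from 1 at the start codon, the pair differs most, at 19 of 60 bases, given in capitals:
Stat5a: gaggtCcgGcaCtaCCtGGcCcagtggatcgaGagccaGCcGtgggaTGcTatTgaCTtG
Stat5b: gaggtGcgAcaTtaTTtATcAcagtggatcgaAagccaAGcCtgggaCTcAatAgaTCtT
In coding bases 178 to 237 they do not differ at all, so no capitals stand in the shared stretch:
Stat5a and Stat5b: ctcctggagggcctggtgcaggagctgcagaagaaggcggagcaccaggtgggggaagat

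Of the 5 STAT genes, 3 lie beside each other in the genome. In GENCODE M21 (GRCm38), Stat5b occupies chr11:100780731-100850724 on the minus strand, Stat5a chr11:100859351-100885169 on the plus strand and Stat3 chr11:100885098-100939540 on the minus strand. Stat5b and Stat5a are 8626 bases apart and are transcribed away from each other, and the ends of Stat5a and Stat3 overlap by 72 bases. Stat6 and Stat2 are both on chromosome 10, at chr10:127642986-127660957 and chr10:128270559-128292849 on the plus strand. Stat6 overlaps Nab2, a gene of the opposite strand at 93.1 ± 5.31 TPM, with which it shares 0.27% of its 31-base stretches. The remaining kinases lie at chr4:101152367-101265282 (Jak1, minus strand), chr19:29251828-29313080 (Jak2, plus strand) and chr9:21104068-21131243 (Tyk2, minus strand). All 9 are protein-coding. Jak1, Jak2, Tyk2 and Stat2 had no 31-base stretch in common with any other annotated gene.

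Stat2 was the lowest of the 9 genes in every library, at 5.60, 5.96 and 5.91 TPM. It encodes the STAT that joins IRF9 in the factor ISGF3, which binds interferon-stimulated response elements (ISREs) after type I and type III interferon. Stat2 made up 4.46% ± 0.20 of the STAT sum, and Stat6 was 8.60 ± 0.32-fold and Stat3 7.39 ± 0.23-fold higher (adjusted p = 6.23e-10 and 9.29e-10, limma). Its partner gene Irf9 stood at 12.4, 11.7 and 12.7 TPM, 2.11 ± 0.13-fold above Stat2 (adjusted p = 1.21e-06, limma). Promoters were searched on both strands for the ISRE letters (GAAA followed, after any 2 bases, by GAAA again) and for the letters TTCNNNGAA, the core of the gamma-activated sequence (GAS) that STAT dimers bind. RefSeq promoter windows (GRCm38.p6), from 250 bases before to 50 after a start site, were found for all 9 genes in 11 windows. Stat2 alone held the ISRE letters, which occur in 3.44% of all 32851 windows, and none of the 9 genes held the GAS letters, which occur in 8.30%. The stretch is shown because it is the one match among the members, on the plus strand at chr10:128270258-128270303, with the matching letters in capitals, read here as the reverse complement of the motif:
Stat2: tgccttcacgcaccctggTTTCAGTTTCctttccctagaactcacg
A match is a description of letters and does not show that a factor binds.

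Of the 36 pairs that the 9 genes form, 29 differed at an adjusted p below 0.05 and 7 did not. The background is high, since most genes of a cell differ in level. Of the 12013 genes tested against each reference gene, 95.1% differed from Jak1, 93.2% from Jak2, 89.5% from Jak3, 92.6% from Tyk2, 94.6% from Stat2, 94.4% from Stat3, 91.1% from Stat5a and 94.4% from Stat5b. Stat2 and Stat3 differed from all 8 others. Jak3 differed from 4 of 8, the fewest, and was not separated from Jak2, Tyk2, Stat5a or Stat5b. The other pairs that did not pass were Jak1 with Stat6, Jak2 with Stat5a and Tyk2 with Stat5b. Jak2 and Stat5a had a log2 ratio of -0.07 with an interval from -0.22 to 0.076, and Tyk2 and Stat5b one of 0.02 with an interval from -0.16 to 0.19. Jak3 and Stat5b passed with Stat5b as reference and without replicate 2 (adjusted p = 0.040 and 0.0066, limma), and Tyk2 and Stat5a no longer passed without replicate 3 (adjusted p = 0.11, limma). All ratios of a fit share the 3 values of the reference gene. With Jak3, Tyk2, Stat5a or, further on, Lif as reference this shared spread was large, and the p-values of large ratios are too small. For small ratios the p-value could instead be larger than with the other gene as reference. Jak3 with Stat5b had an adjusted p of 0.17 with Jak3 as reference (limma). Stat5a with Stat5b had 0.027 with Stat5a and 0.0037 with Stat5b as reference (adjusted p, limma). The shares of genes that differed in these fits rest on such p-values.

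**Figure D2:**
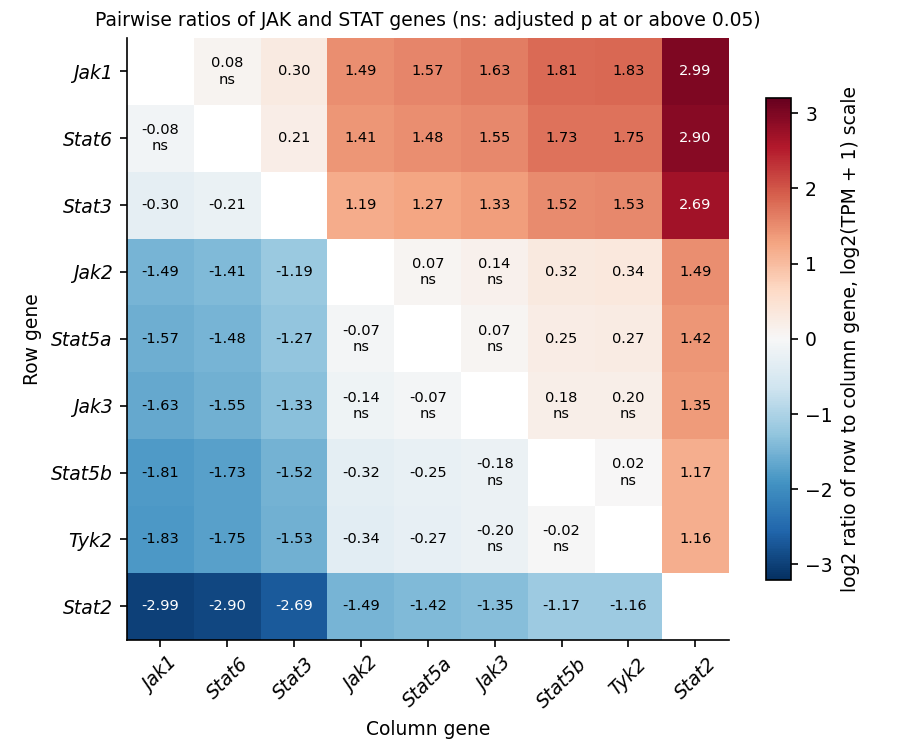
Log2 ratio of the row gene to the column gene on the log2(TPM + 1) scale, ordered by mean level, with ns where the adjusted p was at or above 0.05. Of the 7 pairs marked ns, 5 are neighbours in the order and the others, Jak2 with Jak3 and Jak3 with Tyk2, are separated by 1 gene. The Stat2 row and column hold no ns.

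The libraries did not vary alike for all members. Replicate 2 was below the mean of replicates 1 and 3 by a median of -5.08% over 8502 genes. It deviated by -22.6% for Jak3, lower than all but 3.2% of those genes, by -17.4% for Tyk2, by -14.1% for Stat5a and by -10.6% for Jak1. Stat3 and Stat6 deviated by -1.91% and -1.67%, and Stat2 by 3.57%. Il2rg, the receptor chain of Jak3, deviated by -22.2%, at a mean of 8.05 TPM, below the minimum of 10 TPM for the 8502 genes. Socs3 deviated by -2.98%. Among other receptor chains, replicate 2 was also the lowest library for Osmr, at 4.84, 3.72 and 4.87 TPM in replicates 1, 2 and 3. For Il11ra1 replicate 2 was the highest, at 32.7, 33.6 and 32.9 TPM. Jak3 and Tyk2 had coefficients of variation of 14.2% and 10.7%. The part of library preparation in these deviations was not tested.

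**Figure D3:**
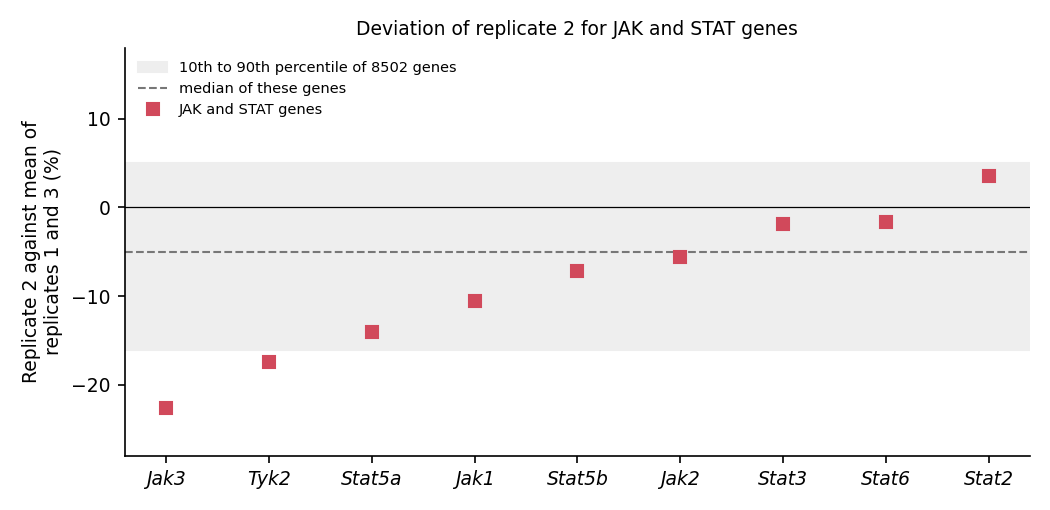
Level in replicate 2 relative to the mean of replicates 1 and 3, in percent, for each of the 9 genes, with the 10th to 90th percentile of 8502 genes of at least 10 TPM as a band and their median as a dashed line. Jak3 and Tyk2 lie below the band and the other 7 genes inside it.

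The receptors through which these kinases work were described by their chains. Of 21 receptors listed, 12 had every chain detected. Counts of detected chains, here and below, are read against the 32.6% of all symbols and 55.4% of protein-coding symbols that were detected. The kinases and STATs of all 21 were detected as far as they are among the 9 genes, which follows from the detection of all 9. The interferon list had the highest median of the 5 receptor lists. The type I chains Ifnar1 and Ifnar2 stood at 49.4 ± 1.84 and 49.2 ± 1.87 TPM and could not be separated (log2 ratio -0.005, 95% interval -0.14 to 0.14, adjusted p = 0.94, limma; 95.4% of all genes differed from Ifnar1). The interferon gamma chains Ifngr1 and Ifngr2 stood at 27.1 ± 1.06 and 41.6 ± 1.32 TPM, a 1.53 ± 0.015-fold difference (adjusted p = 3.19e-05, limma; 94.4% of genes differed from Ifngr1). For interferon lambda the shared chain Il10rb reached 87.9 ± 1.40 TPM, with 29.8% of its 31-base stretches also in another gene, and the specific chain Ifnlr1 3.37 ± 0.57 TPM. All 6 chains of this list were detected, with a median of 45.4 TPM over the genes.

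The gp130 family, whose receptors signal mainly through Jak1 and Stat3, was detected in 5 of 9 chains, close to the 55.4% of protein-coding symbols. The common chain Il6st (gp130) stood at 19.1, 17.3 and 19.7 TPM. Lifr, its partner for LIF, stood at 19.9, 15.4 and 18.5 TPM and did not differ by the test (log2 ratio of Lifr to Il6st -0.06, 95% interval -0.21 to 0.084, adjusted p = 0.34, limma). Il6ra was 1.74 ± 0.092-fold below Il6st and Osmr 4.22 ± 0.37-fold below it (adjusted p = 1.44e-05 and 1.97e-07, limma; 93.9% of genes differed from Il6st). Il11ra1 stood at 33.1 ± 0.49 TPM, 1.77 ± 0.15-fold above Il6st (adjusted p = 2.01e-05, limma). Of its 31-base stretches 56.7% occur in other genes, mostly Gm13305 and Il11ra2, of which Il11ra2 was listed at 0 in every library and Gm13305 had 0.11 TPM in replicate 2 and 0 in the others. The remaining chains Lepr, Il27ra, Csf3r and Cntfr had means from 0.0070 to 0.29 TPM.

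Receptors of Jak3 and Stat6 were present in part. Il4ra, the shared chain of IL-4 and IL-13 signalling, stood at 30.9, 31.02 and 33.4 TPM. Its partner for non-haematopoietic cells, Il13ra1, was 2.98 ± 0.081-fold lower and its partner in lymphocytes, Il2rg, 4.002 ± 0.59-fold lower (adjusted p = 4.70e-08 and 9.98e-08, limma; 93.3% of genes differed from Il4ra). Of the 31-base stretches of Il2rg, 42.7% occur in other genes, nearly all in Gm20489, which was not measured under that symbol. Crlf2, the TSLP receptor chain, stood at 13.3 ± 0.69 TPM beside Il7r at 0.022 TPM in replicate 2 and 0 in the others. In all, 5 of 11 chains of the common gamma and IL-4 group were detected.

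For Jak2 and the STAT5 genes, the growth hormone receptor Ghr stood at 16.7, 16.8 and 17.8 TPM and the erythropoietin receptor Epor at 9.56, 9.19 and 8.80 TPM. The prolactin receptor Prlr had a mean of 0.030 TPM, and 5 of 8 chains of this group were detected. Csf2ra, the specific chain of the GM-CSF receptor, stood at 15.7 ± 0.79 TPM and its signalling chain Csf2rb at 0.021 ± 0.011 TPM. In the IL-10 and IL-12 group 1 of 7 chains was detected, the IL-22 receptor chain Il22ra1 at 5.04 ± 0.36 TPM, and Il10ra was listed at 0 in every library.

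**Figure D4:**
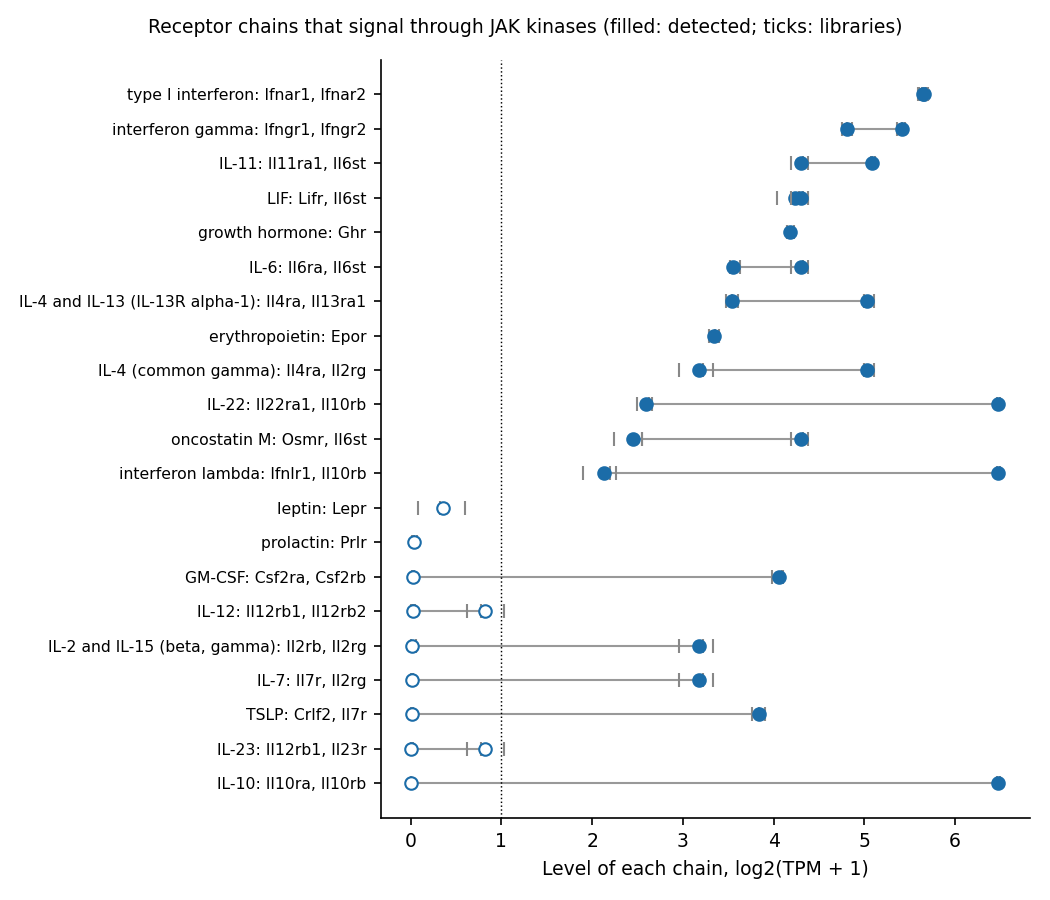
Level of each receptor chain on the log2(TPM + 1) scale, 1 row per receptor, with a line joining the chains, ticks for the 3 libraries and filled circles for detected chains. The 12 receptors at the top have only filled circles, and each of the 9 others has at least 1 open circle.

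Ligands of these receptors were mostly absent from the cells' own RNA. Of 35 ligand genes 5 were detected and 14 were listed at 0 in every library, with a median of 0.025 TPM, below the 0.034 TPM of all genes and the 4.02 TPM of protein-coding genes. The most abundant was Clcf1, a cytokine of the gp130 family, at 36.7, 32.0 and 38.4 TPM. Lif stood at 7.80, 6.38 and 6.89 TPM, and Clcf1 was above it in 3 of 3 libraries, by 5.10 ± 0.44-fold (93.9% of genes differed from Lif, in a fit whose p-values for large ratios are too small). Il15 stood at 2.58 ± 0.54 TPM and Csf2, the gene of GM-CSF, at 2.40 ± 0.26 TPM. Cntf was also called detected, at 2.06 ± 0.23 TPM, but 78.4% of its 31-base stretches occur in another gene, Zfp91, at 51.5 ± 3.01 TPM. Il6 and Il11 had means of 0.084 and 0.40 TPM, and Osm, Ifnb1, Il10 and Il13 were listed at 0 in every library. Of the 12 receptors with every chain detected, 1 had a detected ligand in the list, the LIF receptor. That count depends on the list, in which Clcf1 and Cntf were assigned to none of the 21 receptors. No listed receptor held Cntfr, and type I interferon was represented by Ifnb1 only.

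All 8 SOCS and CIS genes were detected, with a median of 8.20 TPM, where 32.6% of all symbols and 55.4% of protein-coding symbols were detected. Socs5, linked to EGF receptor and IL-4 receptor signalling, was the highest at 174 ± 8.02 TPM. Socs3, the feedback inhibitor of gp130 signalling and a STAT3 target, stood at 59.1, 60.2 and 64.96 TPM. It exceeded Socs1, the inhibitor of interferon signalling, 13.3 ± 2.10-fold. Against Socs2 and Cish, both STAT5 targets, it was 18.7 ± 1.53-fold and 27.8 ± 2.77-fold higher. All 3 differences passed the test (adjusted p = 1.19e-13, 2.02e-14 and 9.10e-15, limma; 95.2% of genes differed from Socs3). The size of these p-values depended on the fit. Without replicate 1 they were 1.09e-06, 7.46e-07 and 7.35e-07 (adjusted p, limma). Socs6 followed with 30.0 ± 1.36 TPM and Socs7 with 8.76 ± 0.73 TPM.

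Among the PIAS proteins, phosphatases and other negative regulators 10 of 12 were detected, with a median of 26.1 TPM. The counts of this paragraph are read against the 32.6% of all symbols and 55.4% of protein-coding symbols that were detected. Pdlim2, a nuclear protein that promotes STAT breakdown, stood at 53.4 ± 2.65 TPM, and Ptpn2, a phosphatase of JAK and STAT proteins, at 50.1 ± 0.65 TPM. Ptpn11 (SHP2) was 4.35 ± 0.50-fold above Ptpn6 (SHP1), which is best known from blood cells (adjusted p = 2.44e-06, limma; 95.3% of genes differed from Ptpn11). Pias2 stood at 43.98 ± 1.59 TPM. Not detected were Ptprc and the interferon-induced Usp18, at 0.36 ± 0.15 TPM. All 12 STAT partners and nuclear transport genes were detected, with Ndufa13, a respiratory complex I subunit known to bind STAT3, at 125 ± 1.06 TPM (33.2% of its 31-base stretches also in other genes) and the export receptor Xpo1 at 101 ± 3.92 TPM. The importin Kpna2 was listed at 121 ± 6.60 TPM, but 94.2% of its 31-base stretches occur in other genes, mostly pseudogenes. Kpna4 stood at 64.9 ± 1.32 TPM.

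Target genes are read against the 32.6% of all symbols and 55.4% of protein-coding symbols that were detected, and the lists were not tested against each other. Of 20 known STAT3 targets 14 were detected, with a median of 26.9 TPM. The highest were Ccnd1 at 399 ± 11.8 TPM (28.1% shared in the same way), Myc at 207 ± 5.10 TPM, Bcl2l1 at 150.2 ± 1.44 TPM and Birc5 at 96.4 ± 6.24 TPM, genes of proliferation and survival that many other factors control too. Timp1 and Vegfa, which encode secreted proteins, stood at 89.5 ± 1.67 and 88.0 ± 2.35 TPM. The 6 targets that were not detected include acute-phase genes. Lcn2 had a mean of 0.33 TPM, Saa3 0.12 TPM, Reg3g 0.12 TPM and Reg3b 0.025 TPM, and Fgg was listed at 0 in every library. Hp stood at 0.97, 1.39 and 0.85 TPM. Of 10 STAT5 targets 7 were detected, led by Ccnd2 at 289 ± 15.4 TPM and Id1 at 183 ± 11.5 TPM, with Pim2 at 21.7 ± 1.69 TPM and Bcl6 at 16.0 ± 1.09 TPM, while Igf1, Osm and Il2ra were not. Of 14 STAT6 targets 3 were detected, the chemokine Ccl17 at 7.49, 10.2 and 9.62 TPM, Socs1 at 4.73 ± 0.99 TPM and Gata3 at 1.10 ± 0.076 TPM. The median of the STAT6 list was 0.033 TPM. Whether the genes of these lists respond to their STAT in KPC78 cells was not tested.

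Interferon-stimulated genes were detected for 12 of 24, close to the 55.4% of protein-coding symbols, with a median of 1.12 TPM against 4.02 TPM for protein-coding genes. Bst2 (tetherin) stood at 77.2, 70.0 and 73.2 TPM, Ifi27 at 67.5 ± 1.47 TPM, Irf1 at 43.4 ± 4.61 TPM and Irf9 at 12.3 ± 0.53 TPM. Other detected genes of the list were lower. Isg15 stood at 8.75, 7.44 and 9.98 TPM, Ifit3 at 3.32 ± 0.15 TPM, Ifit1 at 1.60 ± 0.10 TPM and Cxcl10 at 1.30 ± 0.099 TPM. Ifit3 shares 61.8% of its 31-base stretches with other genes, mostly its copy Ifit3b at 1.43 ± 0.13 TPM. Not detected were, among others, Mx1 at 0.83 ± 0.077 TPM, Irf7 at 0.92 ± 0.060 TPM, Rsad2 at 0.22 ± 0.047 TPM and Oas2 at 0.24 ± 0.15 TPM. Psmb8 and Ciita, genes of antigen presentation, had means of 0.056 and 0.019 TPM.

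**Figure D5:**
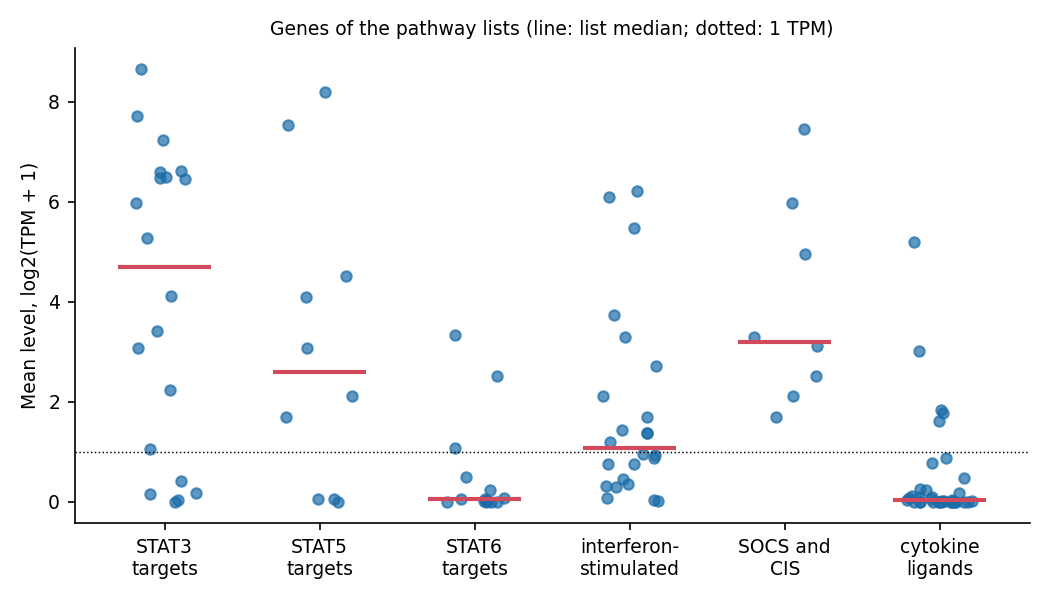
Mean level of each gene on the log2(TPM + 1) scale in 6 lists, with a red line for the list's median and a dotted line at 1 TPM. Both STAT3 and STAT5 targets reach above 8, and STAT3 targets have the highest median. The interferon-stimulated genes sit around the dotted line, and STAT6 targets and ligands lie mostly below it.

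Genes at both ends of this range carried the binding letters in their promoters. The ISRE letters were in the window of 10 of 18 interferon-stimulated genes with a promoter sequence, against 3.99% of all 27025 genes. The GAS letters were in 3 of 16 STAT3 targets, 2 of 6 STAT5 targets, 2 of 8 STAT6 targets and 5 of 18 interferon-stimulated genes, against 9.55% of all genes. These counts describe lists chosen for being known targets. The stretches below are from RefSeq (GRCm38.p6), in the orientation of the gene, and show an abundant and a scarce gene for each motif, with the matching letters in capitals. Socs3 lies at chr11:117969494-117969538 on the minus strand, Irf1 at chr11:53769906-53769950 on the plus strand and Psmb8 at chr17:34198080-34198124 on the plus strand:
Socs3, GAS: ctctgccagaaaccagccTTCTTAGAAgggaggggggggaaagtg
Irf1, GAS: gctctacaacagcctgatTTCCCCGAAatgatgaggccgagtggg
Psmb8, GAS: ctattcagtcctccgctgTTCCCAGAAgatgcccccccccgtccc
Bst2 lies at chr8:71537569-71537614 on the minus strand, Cxcl10 at chr5:92349075-92349120 on the minus strand and Ifit1 at chr19:34640767-34640812 on the plus strand:
Bst2, ISRE: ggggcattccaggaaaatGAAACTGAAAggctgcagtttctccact
Cxcl10, ISRE: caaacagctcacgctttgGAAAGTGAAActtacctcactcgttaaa
Ifit1, ISRE: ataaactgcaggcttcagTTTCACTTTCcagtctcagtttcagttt
In Bst2 the ISRE letters occur in overlapping copies, of which 1 also overlaps GAS letters, and Ifit1 holds a further copy downstream of the one shown. The means ran from 73.5 TPM for Bst2 to 0.056 TPM for Psmb8, so the presence of the letters did not go with 1 level.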

How the data were processed

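The authors deposited TPM per gene symbol for the 3 KPC78 libraries. Per the submitters' processing notes, bcl2fastq 2.19 and kallisto 0.44.0 were used with the build GRCm38.p6. Which annotation release served, how transcripts were summed and whether libraries kept strand is not given in the labels. Kallisto splits reads shared between genes by a model, and read depth cannot be recovered, so no counting intervals are given. Another short sheet, whose 3 columns match no sample label, was not used.

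For each reference gene, the log2(TPM + 1) difference of every gene with a mean of at least 1 TPM to that gene went into an intercept fit (limma 3.58.1, R 4.3.3) with moderated spread, a two-sided test and Benjamini-Hochberg adjustment over 12013 genes at 0.05. The step was tested on simulated data with Jak1 as reference only. It called 5.3% of the genes placed at a log2 ratio of 0 and 76% of those placed at 0.25. Fits with other reference genes were not simulated. Annotation was GENCODE M21, in which 32390 of 35764 symbols were found, and Python 3.11.15 with pandas 2.3.3 was used. Shared sequence was counted in 31-base stretches of the longest coding transcript.

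The members, the 15 lists and the pairs were chosen with earlier results of these data known. Named are the members, the genes of the pairs and receptors, and the 4 highest detected genes of each list. The undetected genes are named where a list has 5 or fewer, except for an item that is not reported here. Other named genes were chosen after their values were seen. Alternatives were other pseudocounts, filters, detection levels and spreads, rescaled TPM and leaving out each replicate.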

Additional observations from a re-analysis of the deposited data

How the results depend on the processing

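No paired analysis was possible because just 1 group was sequenced. Every ratio was taken within a library. The 29 member pairs that differed were again called with a pseudocount of 0.1 or 5 TPM, with other filters on low genes (of 10 pathway pairs that a minimum of 5 TPM left, 8 were called), with rescaled TPM and with a spread that varies with level, the last chosen after seeing the data. Over the pairs only, 32 were called, adding Jak3 with Jak2, Tyk2 and Stat5b. With the other gene of each pair as reference, also chosen after seeing the data, 31 were called, adding Jak3 with Tyk2 and Stat5b. Leaving out a replicate gave 28 to 31 member pairs and 12 pathway pairs each time. Stat5a with Stat5b was lost without replicate 1 and Tyk2 with Stat5a without replicate 3. Leaving out a replicate moved the log2 ratio of Ifnar2 to Ifnar1 between -0.064 and 0.038 and that of Stat5b to Tyk2 between -0.036 and 0.053, reversing the first without replicates 1 and 3 (0.011 without replicate 3) and the second without replicate 2. Neither pair was called in any fit. At a detection level of 5 TPM the counts fell to 0 IL-10 and IL-12 family chains, 2 ligands, 5 SOCS and CIS genes, 6 interferon-stimulated genes and 1 STAT6 target, and at 0.5 TPM there were 2 IL-10 and IL-12 family chains. All 9 members were detected at each level. Rescaling TPM without mitochondrial and ribosomal protein genes raised the members by a median of 1.36-fold. The read depth is unknown, and 3 libraries limit the precision of each ratio.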

Other observations

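Receptor chains of the IL-3, IL-5 and GM-CSF family, which signal through Jak2 and the STAT5 genes by a common beta chain, were unevenly present. Il3ra stood at 47.6, 46.4 and 60.8 TPM, Il5ra at 30.8, 32.9 and 31.5 TPM and Csf2ra at 16.1, 16.1 and 14.8 TPM. Replicate 3 was the highest library for Il3ra, while the others did not stand apart. The common chain Csf2rb stood at 0.0086, 0.028 and 0.027 TPM. Csf2rb2, the mouse beta chain of the IL-3 receptor, was looked up after these values were seen and was listed at 0 in replicates 1 and 2 and at 0.011 TPM in replicate 3. The ligand gene Il3 was listed at 0 in every library and Il5 had a mean of 0.052 TPM, beside Csf2 at 2.40 ± 0.26 TPM (SD, n = 3). Il15 and its specific chain Il15ra were both detected, at 2.58 ± 0.54 and 2.45 ± 0.34 TPM, while the signalling chain Il2rb stood at 0.040 TPM in replicate 1 and at 0 in the others.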
